A study of Homo sapiens with 9 samples.

Results

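Transcripts of 31 cholesterol and fatty acid synthesis genes were examined in 786-O cells in which ARNT or BMAL1 was depleted. The genes were listed by name for their known roles, with earlier results of these data known, and all 31 were found among the 38021 genes counted. They fall into 5 regulators of the pathway, 19 genes of sterol synthesis and transport, and 7 genes of fatty acid synthesis. 786-O is an established human line of clear cell renal cell carcinoma in which VHL is not functional, and HIF2α (EPAS1) is stable even with oxygen present. The cells were infected with lentivirus carrying a pLKO.1 vector, selected with puromycin and kept in medium with fetal bovine serum. They expressed a control hairpin (shControl), a hairpin against ARNT (shARNT) or a hairpin against BMAL1 (shBMAL1), with 1 hairpin per target and 3 libraries per group. The labels call these libraries biological replicates but do not say whether they came from separate infections, so p values measure only the spread between these libraries. The study measured what ARNT and BMAL1, alternative partners of HIF2α, each contribute to gene expression in these cells.

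Cells make cholesterol from acetyl-CoA through mevalonate and squalene, and make long-chain fatty acids from the same precursor through malonyl-CoA. Transcription of both pathways is driven by the sterol regulatory element-binding proteins, SREBP1 (from SREBF1), best known for fatty acid genes, and SREBP2 (from SREBF2), best known for sterol genes. SCAP escorts both proteins to the Golgi for activation by cleavage when sterols are low, and INSIG1 and INSIG2 hold them in the endoplasmic reticulum when sterols are high. Clear cell renal cell carcinoma is known for cells filled with cholesterol esters and other neutral lipids.

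Each library held 33793043 to 35444731 reads. The share of reads in mitochondrial genes was 5.46 to 7.14% in shControl, 7.59 to 8.74% in shARNT and 8.71 to 9.66% in shBMAL1, and its part in the results below was not tested. The 8 renal line markers were detected in every library, but their levels moved with the groups, as with CDH6, whose mean normalised count was 13870 in shControl, 27960 in shARNT and 45690 in shBMAL1. Of 6 markers of leukocytes, endothelium and hepatocytes, CD3E and CDH5 were at 0 in every library and the highest, PECAM1, had a mean of at most 7.54 normalised counts in a group. ARNT fell under shARNT, with a log2 fold change of −0.94 (SE 0.07, DESeq2 adjusted p 8.83e-35), and its log2 change under shBMAL1 was −0.23 (SE 0.08, DESeq2 adjusted p 0.0187). The gene of BMAL1, listed as ARNTL, fell under shBMAL1, with a log2 fold change of −1.23 (SE 0.11, DESeq2 adjusted p 2.51e-25), and its log2 change under shARNT was −0.26 (SE 0.10, DESeq2 adjusted p 0.0294). At the RNA level, transcript of the target remained in each knockdown, and that of the other target was also lower. At the protein level, the study reports by immunoblot that each target was efficiently depleted and the other target slightly increased. In these bulk libraries, fewer cells with a transcript and less of it per cell cannot be told apart.

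Promoters of 5 members are shown because 4 of them carry the 2 rarest motifs searched, and TM7SF2 is the member with the largest increase. Of the 31 members, 27 had an entry in the RefSeq promoter table of GRCh38.p14, and 8 of these had more than 1 start site, which gave 37 promoters. The 250 bases before each start site were searched on both strands for the E-box CACGTG, known as a site of BMAL1 with CLOCK, and for ACGTG, the core of the hypoxia response element, which every CACGTG also holds. The search also covered TCACNCCAC, a sterol regulatory element, CCAAT and the GC box GGGCGG. Capitals below mark the first 3 of these, and the sequence is written 5′ to 3′ from the gene's own strand.
INSIG1, chr7:155297628-155297877, plus strand: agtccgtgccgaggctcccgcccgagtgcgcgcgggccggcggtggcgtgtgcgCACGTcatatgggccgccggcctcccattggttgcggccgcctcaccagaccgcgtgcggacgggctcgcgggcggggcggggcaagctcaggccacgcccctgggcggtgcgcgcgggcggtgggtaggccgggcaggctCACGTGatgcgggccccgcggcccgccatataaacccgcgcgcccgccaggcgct
SC5D, chr11:121292521-121292770, plus strand: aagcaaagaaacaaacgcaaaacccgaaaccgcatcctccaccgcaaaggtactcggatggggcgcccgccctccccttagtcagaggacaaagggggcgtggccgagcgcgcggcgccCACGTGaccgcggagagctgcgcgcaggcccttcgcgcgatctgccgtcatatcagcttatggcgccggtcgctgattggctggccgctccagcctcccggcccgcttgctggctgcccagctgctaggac
SCAP, chr3:47475942-47476191, minus strand: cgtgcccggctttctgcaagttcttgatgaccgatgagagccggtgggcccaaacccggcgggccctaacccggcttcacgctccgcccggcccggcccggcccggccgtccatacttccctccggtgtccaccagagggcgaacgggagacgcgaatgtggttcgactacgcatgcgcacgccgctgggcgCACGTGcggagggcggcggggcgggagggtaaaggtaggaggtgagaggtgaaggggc
SREBF2, chr22:41832855-41833104, plus strand: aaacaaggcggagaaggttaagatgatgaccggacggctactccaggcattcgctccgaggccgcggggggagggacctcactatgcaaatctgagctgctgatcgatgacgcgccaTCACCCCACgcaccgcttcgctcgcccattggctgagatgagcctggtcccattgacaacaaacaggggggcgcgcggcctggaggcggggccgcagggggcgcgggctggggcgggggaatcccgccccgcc
TM7SF2, chr11:65111622-65111871, plus strand: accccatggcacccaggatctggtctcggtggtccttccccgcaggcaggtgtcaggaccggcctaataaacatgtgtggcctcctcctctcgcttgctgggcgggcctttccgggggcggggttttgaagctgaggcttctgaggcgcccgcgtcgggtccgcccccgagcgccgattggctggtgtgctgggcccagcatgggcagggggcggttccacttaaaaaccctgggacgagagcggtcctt
The E-box was found in INSIG1 at position −55 from the start site, in SC5D at position −131 and in SCAP at position −58, which is 3 of 27 members, whereas 6.34% of all 35116 promoters held it. INSIG1 and SC5D fell under shBMAL1 and SCAP was not called, as described below. The core ACGTG was found in 8 of 27 members, against 18.5% of all promoters and 21.7% of all genes. The sterol regulatory element was found in the promoter of SREBF2 alone, at position −133, against 0.883% of all promoters and 1.09% of all genes. CCAAT was found in 19 of 27 members, against 32% of all promoters, and it was in 14 of 16 sterol genes and 3 of 6 fatty acid genes with an entry. The GC box was found in 26 of 27 members, against 42.6% of all promoters. A member counts here when any of its start sites holds the motif, and 37% of all genes held CCAAT, 46.2% the GC box and 7.73% the E-box when counted that way. The promoter of TM7SF2, the 1 member that rose under shBMAL1, held none of the capitalised motifs. Nor did those of SREBF1, MVD, FDPS, CYP51A1, EBP, SCD, ACLY and FADS2, which all fell under shBMAL1. ACAT2, FDFT1, SQLE and FASN had no promoter entry. A match describes letters only and was not measured as a binding site.

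Across the 31 members, modest decreases were the most frequent change in both knockdowns. Under shARNT, 14 members fell, 3 rose and 14 were not called at a DESeq2 adjusted p under 0.1, whereas 35.4% of the 15164 genes tested were called, 19% lower and 16.5% higher. The median log2 fold change of the members was −0.14, against 0.0028 for all genes tested, and no member changed by at least 1.5-fold. The 3 that rose became 1 without shControl replicate 2, without shARNT replicate 2 or in one fit of 9 libraries. Under shBMAL1, 16 members fell, 1 rose and 14 were not called, whereas 36.8% of the 19036 genes tested were called, 19.4% lower and 17.4% higher. The median log2 fold change was −0.18 under shBMAL1, against 0.0153 for all genes tested, and 4 members (INSIG1, SC5D, FASN and TM7SF2) changed by at least 1.5-fold. The 1 that rose became 2 without shControl replicate 2 or shBMAL1 replicate 1, 4 with GC correction and 3 with GC correction and the replicate block. Highly expressed genes are called more easily, so the 27 members whose normalised counts averaged 1000 or more were also set beside all genes of that level. Of these 27, 13 fell and 3 rose under shARNT, where 27.2% of such genes fell and 22% rose, and the median log2 fold change was −0.14 for the members against −0.0092 for all genes of that level. Of the same number under shBMAL1, 15 fell and 0 rose, where 36.2% of such genes fell and 18.3% rose, and the medians were −0.24 for the members and −0.0734 for all genes of that level. Both knockdowns share the shControl libraries, so their values are given side by side and the direct comparison of shBMAL1 with shARNT tests whether they differ.

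**Figure D1:**
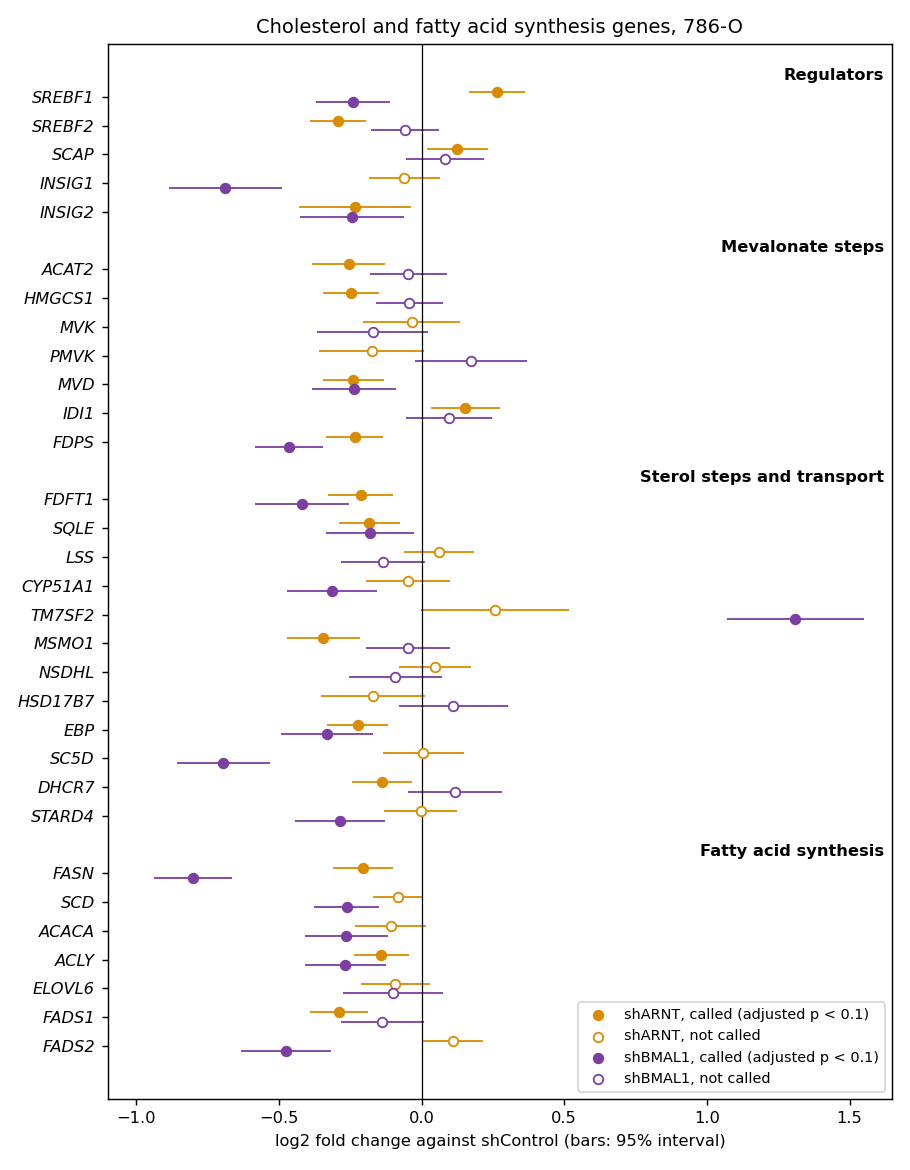
Log2 fold changes of the 31 members (rows, grouped by role) under shARNT (orange) and shBMAL1 (purple) against shControl, with 95% intervals from DESeq2 and filled points where the adjusted p was under 0.1. Most filled points lie left of 0, with TM7SF2 at 1.31 under shBMAL1 and FASN at −0.80 at the extremes.

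The 2 genes that encode the SREBP factors moved in opposite directions under shARNT, and both differed between the knockdowns. SREBF1 (GRCh37 chromosome 17, 17713713 to 17740316, minus strand) had 6595, 6183 and 6413 normalised counts in the shControl libraries, 7666, 7835 and 7517 in shARNT and 5403, 5714 and 5145 in shBMAL1. The 3 groups did not overlap, with shARNT highest and shBMAL1 lowest. SREBF1 rose under shARNT, with a log2 fold change of 0.27 (SE 0.05, DESeq2 adjusted p 1.86e-06), and fell under shBMAL1, with a log2 fold change of −0.24 (SE 0.07, DESeq2 adjusted p 0.00153). Its difference between the knockdowns was −0.50 (SE 0.06, DESeq2 adjusted p 1.75e-13) on the log2 scale. The neighbouring gene RAI1, which overlaps SREBF1 on the other strand, had a log2 fold change of −0.22 under shARNT and −0.17 under shBMAL1, so its direction under shARNT was the opposite of that of SREBF1.

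SREBF2 (GRCh37 chromosome 22, 42229109 to 42303310, plus strand) had 23680, 23420 and 23280 normalised counts in shControl, 19420, 19970 and 17960 in shARNT and 23980, 22130 and 21550 in shBMAL1. Every shARNT library was below every other library, while shControl and shBMAL1 overlapped. SREBF2 fell under shARNT, with a log2 fold change of −0.29 (SE 0.05, DESeq2 adjusted p 1.05e-07). Under shBMAL1 it was not called, and its log2 fold change of −0.06 had a 95% interval from −0.18 to 0.06. The direct comparison placed it higher in shBMAL1 than in shARNT by 0.24 on the log2 scale (SE 0.07, DESeq2 adjusted p 0.00197). Per kilobase of transcript in shControl, SREBF2 was at 4480 normalised counts and SREBF1 at 1305, which makes SREBF2 the more abundant of the pair.

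INSIG1, the retention factor that is itself a classic SREBP target, fell under shBMAL1 and not detectably under shARNT. INSIG1 (GRCh37 chromosome 7, 155089486 to 155101945, plus strand) had 7980, 8628 and 7310 normalised counts in shControl, 7657, 7940 and 7278 in shARNT and 5808, 4962 and 4108 in shBMAL1. The shBMAL1 libraries lay below all others, and shARNT overlapped shControl. INSIG1 fell by 37.9% under shBMAL1, with a log2 fold change of −0.69 (SE 0.10, DESeq2 adjusted p 2.4e-10). Under shARNT its log2 fold change was −0.06 with a 95% interval from −0.19 to 0.06, and it was lower in shBMAL1 than in shARNT by a log2 fold change of −0.62 (SE 0.10, DESeq2 adjusted p 2.8e-09).

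INSIG2 and SCAP were the other regulators. INSIG2 (GRCh37 chromosome 2, 118846028 to 118868573, plus strand) had 1065, 1031 and 969.5 normalised counts in shControl, 740.5, 879.9 and 983 in shARNT and 906.5, 881.8 and 805.9 in shBMAL1. The shARNT libraries overlapped shControl and the shBMAL1 libraries did not. INSIG2 was called lower in both, with log2 fold changes of −0.23 under shARNT (SE 0.10, DESeq2 adjusted p 0.0668) and −0.24 under shBMAL1 (SE 0.09, DESeq2 adjusted p 0.0305), and a direct difference whose 95% interval ran from −0.22 to 0.21. The escort SCAP (GRCh37 chromosome 3, 47455171 to 47518616, minus strand) had 4656, 4582 and 4939 normalised counts in shControl, 5048, 5102 and 5282 in shARNT and 5355, 4838 and 4838 in shBMAL1. The shARNT libraries lay just above the shControl libraries, and shBMAL1 overlapped shControl. SCAP rose by 9.09% under shARNT, with a log2 fold change of 0.13 (SE 0.05, DESeq2 adjusted p 0.0667). It was not called under shBMAL1, with a log2 fold change of 0.08 and a 95% interval from −0.05 to 0.22. Both calls under shARNT were lost when any 1 of 4 libraries was left out, with the DESeq2 adjusted p reaching 0.384 for INSIG2 without shARNT replicate 1 and 0.244 for SCAP without shControl replicate 2. The other such libraries were shControl replicates 1 and 2 and shARNT replicate 2 for INSIG2, and shControl replicate 1 and shARNT replicates 2 and 3 for SCAP, and the DESeq2 adjusted p over all libraries left out began at 0.013 for INSIG2 and 0.0382 for SCAP. Both were also lost with the replicate block (DESeq2 adjusted p 0.137 for INSIG2 and 0.122 for SCAP) and with no independent filtering (DESeq2 adjusted p 0.105 each), and SCAP also with TMM size factors (0.107) and in one fit of 9 libraries (0.137). Under shBMAL1 the GC correction called SCAP higher (log2 fold change 0.13, DESeq2 adjusted p 0.0535). Under shBMAL1 the call of INSIG2 was lost without shControl replicate 1 (DESeq2 adjusted p 0.146) and without shBMAL1 replicate 3 (DESeq2 adjusted p 0.159), within a range from 0.0254 to 0.159.

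**Figure D2:**
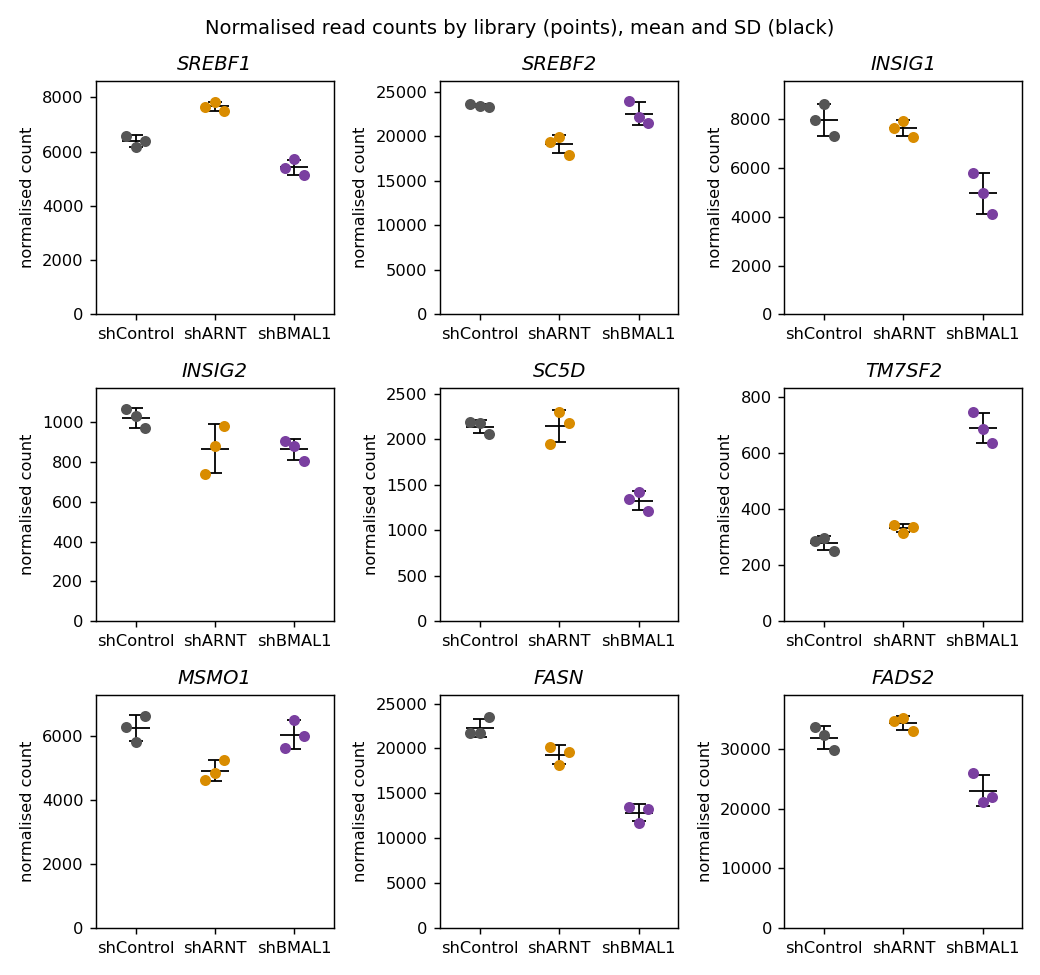
Normalised counts (vertical axes from 0) of 9 members in each of the 9 libraries, with points for libraries and black marks for the mean and SD of 3 libraries per group. SREBF1 is highest in shARNT, SREBF2 and MSMO1 are lowest in shARNT, and INSIG1, SC5D, FASN and FADS2 are lowest in shBMAL1, where TM7SF2 is highest.

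Genes of the mevalonate steps were next compared, with the difference between the knockdowns tested gene by gene in the direct comparison. Of the 7 genes from acetyl-CoA to farnesyl diphosphate, 4 fell and 1 rose under shARNT (median log2 fold change −0.23), while 2 fell and 0 rose under shBMAL1 (median log2 fold change −0.05). The share of all tested genes that fell was 19% under shARNT and 19.4% under shBMAL1, and 27.2% and 36.2% among genes averaging 1000 normalised counts or more. Between the knockdowns, where 35.3% of the 18181 genes tested were called, 18% lower and 17.3% higher in shBMAL1, 3 of these 7 genes were higher in shBMAL1 and 1 was lower. HMGCS1, which makes HMG-CoA, had a log2 fold change of −0.25 under shARNT (SE 0.05, DESeq2 adjusted p 1.07e-05) and −0.04 under shBMAL1, and was higher in shBMAL1 than in shARNT by 0.21 on the log2 scale (SE 0.06, DESeq2 adjusted p 0.0034). Its shARNT libraries held 6648 to 7070 normalised counts, below the 7687 to 8379 of all others.

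ACAT2, the cytosolic thiolase that makes acetoacetyl-CoA, had a log2 fold change of −0.26 under shARNT (SE 0.07, DESeq2 adjusted p 0.000729) and −0.05 under shBMAL1. Its call in the direct comparison, a log2 fold change of 0.21 (SE 0.07, DESeq2 adjusted p 0.0158), was lost without shARNT replicate 2 (DESeq2 adjusted p 0.159, in a range from 0.0153 to 0.159 over the libraries left out). SOD2, which overlaps ACAT2 on the other strand, rose under shARNT with a log2 fold change of 1.31 (DESeq2 adjusted p 9.04e-72), opposite to ACAT2, and reads shared between them could not be told apart. PMVK, the phosphomevalonate kinase, was called between the knockdowns and in neither against shControl, higher in shBMAL1 than in shARNT by 0.35 on the log2 scale (SE 0.08, DESeq2 adjusted p 0.000145), and the GC correction also called it higher under shBMAL1 (0.22, DESeq2 adjusted p 0.0689).

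FDPS, which makes farnesyl diphosphate, was the mevalonate gene with the largest decrease under shBMAL1. It held 6688 to 7046 normalised counts in shControl, 5641 to 5933 in shARNT and 4915 to 5007 in shBMAL1, 3 ranges that do not overlap. FDPS fell under both knockdowns, with log2 fold changes of −0.23 (SE 0.05, DESeq2 adjusted p 4.77e-05) and −0.46 (SE 0.06, DESeq2 adjusted p 5.73e-13), and it was lower in shBMAL1 than in shARNT by a log2 fold change of −0.23 (SE 0.06, DESeq2 adjusted p 0.00112). The annotation names 8 pseudogenes of FDPS and 3 of IDI1, and how reads shared with such copies were counted is not given in the sources used here. MVD, the decarboxylase, fell under both, with log2 fold changes of −0.24 under each knockdown and a direct difference whose 95% interval ran from −0.14 to 0.15. IDI1, the isomerase, rose under shARNT with a log2 fold change of 0.15 (SE 0.06, DESeq2 adjusted p 0.0443). Among the 19 sterol genes no other increase was called there in the main fit. With GC correction, TM7SF2 was called higher under shARNT (log2 fold change 0.31, DESeq2 adjusted p 0.0666). The antisense neighbour of IDI1, IDI2-AS1, rose too, with a log2 fold change of 0.44 (DESeq2 adjusted p 0.00309). The call of IDI1 was lost without shControl replicate 2 (DESeq2 adjusted p 0.185), shARNT replicate 2 (0.225) or shARNT replicate 3 (0.196), within a range of adjusted p from 0.00439 to 0.225 over the libraries left out. It was also lost with GC correction without and with the replicate block (DESeq2 adjusted p 0.124 and 0.21) and in one fit of 9 libraries (DESeq2 adjusted p 0.128). MVK, the mevalonate kinase, was not called in any comparison.

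Among the 11 steps from squalene to cholesterol, 5 fell and 0 rose under shARNT, and 5 fell and 1 rose under shBMAL1, but not all of these were shared. Of all genes tested 19% fell under shARNT and 19.4% under shBMAL1, and of those averaging 1000 normalised counts or more 27.2% and 36.2%. SC5D, the lathosterol oxidase of a late step, was not called under shARNT and had the largest decrease of the sterol genes under shBMAL1. SC5D (GRCh37 chromosome 11, 121163390 to 121184119, plus strand) had 2189, 2178 and 2054 normalised counts in shControl, 1953, 2299 and 2184 in shARNT and 1343, 1421 and 1210 in shBMAL1. The shBMAL1 libraries lay far below the other 6, which overlapped. SC5D fell by 38.2% under shBMAL1, with a log2 fold change of −0.69 (SE 0.08, DESeq2 adjusted p 1.94e-15), against a log2 fold change of 0.01 under shARNT with a 95% interval from −0.14 to 0.15. The direct comparison gave a log2 fold change of −0.70 (SE 0.09, DESeq2 adjusted p 2.19e-13).

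TM7SF2, a sterol reductase that acts in the same step as the lamin B receptor, changed in the other direction. TM7SF2 (GRCh37 chromosome 11, 64879317 to 64883856, plus strand) had 284.8, 297.9 and 249.7 normalised counts in shControl, 342, 315.2 and 335.9 in shARNT and 745.6, 684.3 and 636.5 in shBMAL1. The 3 groups did not overlap, and shBMAL1 stood well apart from the others. TM7SF2 rose 2.48-fold under shBMAL1, with a log2 fold change of 1.31 (SE 0.12, DESeq2 adjusted p 5.85e-25), and was higher there than in shARNT by 1.06 on the log2 scale (SE 0.11, DESeq2 adjusted p 1.33e-18). Under shARNT its log2 fold change was 0.26 with a 95% interval from −0.002 to 0.52 (DESeq2 adjusted p 0.134), and both edgeR and the GC correction called it higher there. VPS51, which overlaps TM7SF2 on the same strand, had log2 fold changes of −0.12 and 0.03 in the knockdowns, and neither was called. TM7SF2 was also the least abundant member, at 176 normalised counts per kilobase of transcript in shControl.

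FDFT1, the squalene synthase that commits farnesyl diphosphate to sterols, fell under both knockdowns, with log2 fold changes of −0.21 under shARNT (SE 0.06, DESeq2 adjusted p 0.00144) and −0.42 under shBMAL1 (SE 0.08, DESeq2 adjusted p 6.83e-06). EBP, a sterol isomerase, also fell under both, with log2 fold changes of −0.22 and −0.33 (DESeq2 adjusted p 0.000294 and 0.000359). SQLE, the squalene epoxidase, had a log2 fold change of −0.18 in each, with DESeq2 adjusted p 0.00428 under shARNT and 0.0628 under shBMAL1. The second of these calls was lost without shControl replicate 1 (DESeq2 adjusted p 0.279) and without shBMAL1 replicate 3 (DESeq2 adjusted p 0.314), in a range from 0.0276 to 0.314. CYP51A1, the lanosterol demethylase, fell under shBMAL1, with a log2 fold change of −0.31 (SE 0.08, DESeq2 adjusted p 0.000671), and not under shARNT, where it was −0.05 with a 95% interval from −0.20 to 0.10.

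MSMO1, the sterol methyl oxidase, was the member with the largest decrease under shARNT. It held 5814 to 6617 normalised counts in shControl, 4607 to 5253 in shARNT and 5624 to 6498 in shBMAL1, so that the shARNT libraries were below all the others. MSMO1 fell by 21.2% under shARNT, with a log2 fold change of −0.34 (SE 0.07, DESeq2 adjusted p 1.54e-06), had a log2 fold change of −0.05 under shBMAL1, and was higher in shBMAL1 than in shARNT by 0.30 on the log2 scale (SE 0.08, DESeq2 adjusted p 0.000546). DHCR7, the last reductase of one branch, had a log2 fold change of −0.14 under shARNT (SE 0.05, DESeq2 adjusted p 0.04) and 0.12 under shBMAL1. Its call under shARNT was lost without shControl replicate 1 (DESeq2 adjusted p 0.139), shARNT replicate 2 (0.142) or shARNT replicate 3 (0.239), in a range of adjusted p from 0.00631 to 0.239 over the libraries left out. It was also lost with GC correction, where the log2 fold change was −0.086 without and with the replicate block (DESeq2 adjusted p 0.195 and 0.255), and in one fit of 9 libraries (DESeq2 adjusted p 0.195). Under shBMAL1 the GC correction called DHCR7 higher (0.16, DESeq2 adjusted p 0.0525). Between the knockdowns DHCR7 was higher in shBMAL1 by 0.26 on the log2 scale (SE 0.09, DESeq2 adjusted p 0.0129), which was lost without shARNT replicate 3 (DESeq2 adjusted p 0.1, in a range from 0.00357 to 0.1). With all libraries, HSD17B7, a sterol ketoreductase, was called between the knockdowns and not against shControl. It was higher in shBMAL1 by 0.29 on the log2 scale (SE 0.09, DESeq2 adjusted p 0.008), and has 2 annotated pseudogenes. Without shControl replicate 1 HSD17B7 was called lower under shARNT (−0.25, DESeq2 adjusted p 0.0622). LSS, the lanosterol synthase, was called lower in shBMAL1 than in shARNT, with a log2 fold change of −0.19 (SE 0.08, DESeq2 adjusted p 0.0482), and that call was lost without shARNT replicate 1 (0.225), shARNT replicate 2 (0.155) or shBMAL1 replicate 2 (0.255), in a range of adjusted p from 0.009 to 0.255. NSDHL was not called in any comparison.

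STARD4, which carries cholesterol between membranes, fell under shBMAL1, with a log2 fold change of −0.28 (SE 0.08, DESeq2 adjusted p 0.00205), and had a log2 fold change of −0.0035 under shARNT. The direct comparison gave −0.28 on the log2 scale (SE 0.08, DESeq2 adjusted p 0.00228). Its antisense neighbour STARD4-AS1 moved the other way under shBMAL1, from a mean of 483 to 1116 normalised counts, with a log2 fold change of 1.21 (DESeq2 adjusted p 2.08e-29). Libraries were stranded per the labels, but the strand setting of the counting is not given, so the reads of these 2 genes may not have been kept apart.

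Most fatty acid synthesis genes were lower under shBMAL1. Of the 7 genes, 5 fell and 0 rose under shBMAL1, all 7 log2 fold changes were below 0 and their median was −0.26. Under shARNT 3 fell and 0 rose, with a median of −0.11, which was −0.167 without shControl replicate 3. In the direct comparison 4 were lower in shBMAL1 and 0 were higher, with a median log2 fold change of −0.15. Of the 19 sterol genes, 8 fell and 1 rose under shBMAL1 (median −0.13), 9 fell and 1 rose under shARNT (median −0.17), while in the direct comparison 6 were lower in shBMAL1 and 7 were higher (median −0.05). Over all genes tested 19.4% fell under shBMAL1, 19% under shARNT and 18% in the direct comparison, and among genes averaging 1000 normalised counts or more these shares were 36.2%, 27.2% and 33.3%. The shares that rose, in the same order, were 17.4%, 16.5% and 17.3% of all genes tested, and 18.3%, 22% and 19.7% at that level. The sterol median under shBMAL1 was −0.086 with GC correction, where the fatty acid median was −0.24, and under shARNT it was −0.11 with GC correction and the replicate block. In the direct comparison the sterol median was −0.091 without shARNT replicate 1, −0.024 without shARNT replicate 2, −0.03 without shARNT replicate 3 and −0.0198 without shBMAL1 replicate 3.

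FASN, the fatty acid synthase that builds palmitate, had the largest decrease of all 31 members. FASN (GRCh37 chromosome 17, 80036214 to 80056170, minus strand) had 21780, 21700 and 23490 normalised counts in shControl, 20210, 18210 and 19570 in shARNT and 13530, 11740 and 13220 in shBMAL1. The 3 groups did not overlap, with shARNT between shControl and shBMAL1. FASN fell by 42.6% under shBMAL1, with a log2 fold change of −0.80 (SE 0.07, DESeq2 adjusted p 1.22e-28), and fell by 13.2% under shARNT, with a log2 fold change of −0.20 (SE 0.05, DESeq2 adjusted p 0.00105). The difference between the knockdowns was −0.59 on the log2 scale (SE 0.07, DESeq2 adjusted p 1.78e-15). FASN fell under shARNT while SREBF1 rose there, and both fell under shBMAL1.

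Under shBMAL1 the enzymes upstream of FASN had smaller decreases than FASN, a difference between genes that was not tested. ACLY, which makes cytosolic acetyl-CoA from citrate, had log2 fold changes of −0.14 under shARNT (SE 0.05, DESeq2 adjusted p 0.0182) and −0.27 under shBMAL1 (SE 0.07, DESeq2 adjusted p 0.00132). Its call under shARNT was lost without shControl replicate 1 (DESeq2 adjusted p 0.102), shControl replicate 2 (0.113) or shARNT replicate 3 (0.126), in a range of adjusted p from 0.0044 to 0.126 over the libraries left out. It was also lost with GC correction, where the log2 fold change was −0.085 without and with the replicate block (DESeq2 adjusted p 0.146 and 0.177). Between the knockdowns ACLY was not called, with a log2 fold change of −0.12 and a 95% interval from −0.26 to 0.02, and GC correction called it lower in shBMAL1 (−0.15, DESeq2 adjusted p 0.0246). ACACA, the acetyl-CoA carboxylase, fell under shBMAL1, with a log2 fold change of −0.26 (SE 0.07, DESeq2 adjusted p 0.00208), and was −0.11 under shARNT with a 95% interval from −0.23 to 0.02. It was called lower in shBMAL1 than in shARNT, with a log2 fold change of −0.15 (SE 0.06, DESeq2 adjusted p 0.0404), but that was lost without any 1 of the 3 shARNT libraries or without shBMAL1 replicate 2, with the DESeq2 adjusted p up to 0.149 in a range that began at 0.0367.

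The desaturases did not move as one. FADS2, the delta-6 desaturase of polyunsaturated fatty acids, held 29810 to 33640 normalised counts in shControl, 33040 to 35230 in shARNT and 21150 to 25950 in shBMAL1. Its shBMAL1 libraries lay below all others, while shARNT and shControl overlapped. FADS2 fell by 28% under shBMAL1, with a log2 fold change of −0.47 (SE 0.08, DESeq2 adjusted p 4.5e-08), and differed between the knockdowns by −0.58 on the log2 scale (SE 0.08, DESeq2 adjusted p 8.87e-13). Under shARNT the log2 fold change of FADS2 was 0.11 (SE 0.05, DESeq2 adjusted p 0.117), not called except after correction for GC content (DESeq2 adjusted p 0.0147), with the replicate block (DESeq2 adjusted p 0.0996), with both (0.00818), without shControl replicate 1 (0.0554) or without shARNT replicate 3 (0.0884). FADS1, the delta-5 desaturase next to it, fell under shARNT, with a log2 fold change of −0.29 (SE 0.05, DESeq2 adjusted p 2.93e-07). Under shBMAL1 FADS1 was not called, with a log2 fold change of −0.14 (SE 0.07, DESeq2 adjusted p 0.158). Its direct difference of 0.16 on the log2 scale was not called (SE 0.08, DESeq2 adjusted p 0.11). It was called by edgeR (adjusted p 0.0869), with the replicate block (DESeq2 adjusted p 0.0796), in one fit of 9 libraries (0.0668) and with the filter of 10 counts (0.0976). The gene bodies of FADS1 and FADS2 overlap on opposite strands. SCD, which makes monounsaturated fatty acids, had 14060 to 14360 normalised counts in the shControl libraries, 13180 to 13480 in shARNT and 11440 to 12250 in shBMAL1, ranges that did not overlap. Under shARNT it was not called, with a log2 fold change of −0.08 (SE 0.04, DESeq2 adjusted p 0.143), except with TMM size factors (−0.09, DESeq2 adjusted p 0.0934). SCD fell under shBMAL1, with a log2 fold change of −0.26 (SE 0.06, DESeq2 adjusted p 4.65e-05), and was lower there than in shARNT by a log2 fold change of −0.17 (SE 0.06, DESeq2 adjusted p 0.011). ELOVL6, an elongase of saturated chains, was not called in any of the 3 comparisons. FADS2 was the most abundant member, at 10330 normalised counts per kilobase of transcript in shControl, followed by ACLY at 6923.

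**Figure D3:**
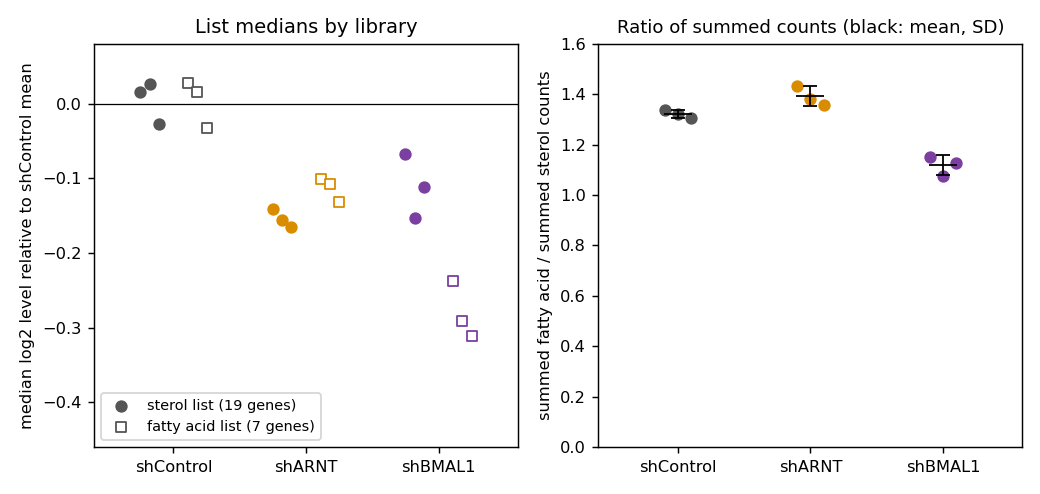
Left, the median log2 level of the 19 sterol genes (filled circles) and the 7 fatty acid genes (open squares) in each library, relative to the shControl mean, and right, the summed normalised counts of the fatty acid genes divided by those of the sterol genes. The ratio is 1.31 to 1.34 in shControl, 1.36 to 1.44 in shARNT and 1.075 to 1.15 in shBMAL1.

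The 2 lists were also compared library by library. The median level of the fatty acid genes, on the log2 scale relative to the shControl mean, was −0.24, −0.29 and −0.31 in the shBMAL1 libraries, where the sterol genes were at −0.07, −0.15 and −0.11. In the shARNT libraries the fatty acid genes were at −0.10, −0.11 and −0.13, and the sterol genes at −0.14, −0.16 and −0.17. The order of the lists under shARNT changed with 1 control library: without shControl replicate 3 the fitted fatty acid median was −0.167 and the sterol median −0.144. The summed counts of the fatty acid genes were 1.32 ± 0.015 times those of the sterol genes in shControl, 1.39 ± 0.039 times in shARNT and 1.12 ± 0.039 times in shBMAL1 (SD, n = 3), and these 3 ranges did not overlap. This ratio weighs abundant genes most, above all FADS2, ACLY and FASN. All members together took 0.681 to 0.719% of the reads in shControl, 0.646 to 0.666% in shARNT and 0.577 to 0.623% in shBMAL1.

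**Figure D4:**
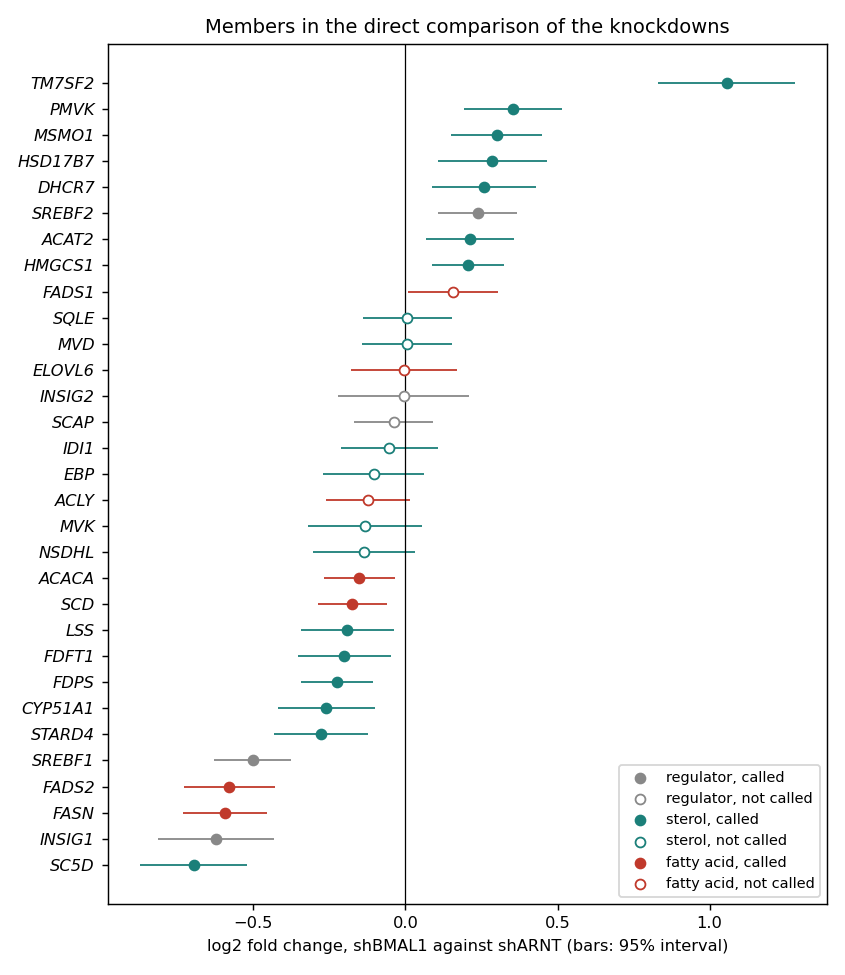
Log2 fold changes of the 31 members between shBMAL1 and shARNT, ordered by value, with 95% intervals from DESeq2, coloured by list and filled where the adjusted p was under 0.1. TM7SF2 at 1.06 leads the 8 members higher in shBMAL1, and SC5D at −0.70 the 12 members lower in shBMAL1, which include 4 of the 7 fatty acid genes.

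Read across all 31 members, the calls against shControl and between the knockdowns were crossed to group the members. The share of all genes with each pattern of calls was not determined. Between the knockdowns, 12 members were lower in shBMAL1 and 8 were higher, where 18% of all tested genes were lower and 17.3% higher. The median log2 fold change of the members was −0.10, against 0.0094 for all genes tested. Of the 27 members averaging 1000 normalised counts or more, 12 were lower and 6 higher, where 33.3% of such genes were lower and 19.7% higher, and the median log2 fold change was −0.12 for these members and −0.065 for all genes of that level. SREBF2, ACAT2, HMGCS1, MSMO1 and DHCR7 formed 1 group of 5, called lower under shARNT, not called under shBMAL1 and higher in shBMAL1 than in shARNT. INSIG1, CYP51A1, SC5D, STARD4, SCD, ACACA and FADS2 formed the converse group of 7, not called under shARNT (SCD, ACACA and FADS2 each passed the threshold there under at least 1 alternative), lowered under shBMAL1 and lower in shBMAL1 than in shARNT. FDPS, FDFT1 and FASN were lowered in both and further in shBMAL1, although the direct call of FDFT1 was lost without shARNT replicate 2 (DESeq2 adjusted p 0.119), shBMAL1 replicate 2 (0.211) or shBMAL1 replicate 3 (0.135), in a range of adjusted p from 9.53e-06 to 0.211. INSIG2, MVD, SQLE, EBP and ACLY were lowered in both with no call between them. Of these, the calls of INSIG2 in both knockdowns, SQLE under shBMAL1 and ACLY under shARNT were lost without single libraries. The direct calls of ACAT2, DHCR7 and ACACA, and the call of DHCR7 under shARNT, were also lost without single libraries, as given above. SREBF1 alone was called in opposite directions in the 2 knockdowns. The other members, SCAP, MVK, PMVK, IDI1, LSS, TM7SF2, NSDHL, HSD17B7, ELOVL6 and FADS1, had none of these patterns.

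Some members that were not called passed the threshold once a single library was left out. Under shARNT these were HSD17B7 without shControl replicate 1 (log2 fold change −0.25), PMVK and ACACA without shControl replicate 3 (−0.25 and −0.18), and FADS2 without shControl replicate 1 or shARNT replicate 3 (0.15 and 0.14). Under shBMAL1 PMVK was called higher without shControl replicate 2 (log2 fold change 0.29), and IDI1, LSS, ELOVL6 and FADS1 were called without shBMAL1 replicate 1 (0.16, −0.19, −0.20 and −0.17), the last also without shBMAL1 replicate 2 (−0.18). In the direct comparison EBP and ACLY were called lower without shBMAL1 replicate 1 (log2 fold changes −0.19 and −0.20), and FADS1 higher without shBMAL1 replicate 3 (0.23).

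Genes around the pathway were described from 5 further lists, whose counts are read against the shares of all tested genes, 19% lower and 16.5% higher under shARNT and 19.4% lower and 17.4% higher under shBMAL1. Of 9 genes of SREBP processing and turnover, 2 fell and 0 rose under shARNT, and 2 fell and 2 rose under shBMAL1. PAQR3, which tethers the SCAP and SREBP complex to the Golgi, fell under shBMAL1 with a log2 fold change of −0.62 (DESeq2 adjusted p 9.04e-12). TRIM21, a ubiquitin ligase, fell in both, with log2 fold changes of −0.43 under shARNT and −0.27 under shBMAL1. ERLIN1 and ERLIN2, which form a complex in the endoplasmic reticulum, rose under shBMAL1 with log2 fold changes of 0.17 and 0.32.

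Of 11 tested genes of sterol sensing, storage and export, 2 fell and 3 rose under shARNT, and 4 fell and 1 rose under shBMAL1. SCARB1, the receptor that takes up cholesterol esters from high-density lipoprotein, fell in both, from 11780 ± 296 normalised counts in shControl to 6179 ± 327 in shARNT and 7512 ± 533 in shBMAL1 (SD, n = 3). SCARB1 changed by −0.93 on the log2 scale under shARNT (DESeq2 adjusted p 1.36e-64) and by −0.65 under shBMAL1 (DESeq2 adjusted p 2.28e-20), and it was the only gene of this list to fall by at least 1.5-fold under shARNT. ABCA1, the cholesterol exporter, fell under shBMAL1 alone among the comparisons with shControl, with a log2 fold change of −0.70 (DESeq2 adjusted p 1.43e-19), and was lower there than in shARNT by a log2 fold change of −0.73 (DESeq2 adjusted p 4.38e-25). SOAT1, which esterifies cholesterol for storage, rose under shARNT with a log2 fold change of 0.20 and fell under shBMAL1 with a log2 fold change of −0.24. LPCAT3 rose under shARNT with a log2 fold change of 0.37, NPC2 fell there with a log2 fold change of −0.16, and TMEM97 rose under shBMAL1 with a log2 fold change of 0.39. None of these 3 was called in the other knockdown, and all 3 were called in the direct comparison (DESeq2 adjusted p 0.000725, 0.0127 and 0.00525).

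Of 10 genes of the isoprenoid branches, which draw on farnesyl diphosphate, 1 fell and 0 rose under shARNT (median log2 fold change −0.05) and 3 fell and 0 rose under shBMAL1 (median −0.14). PDSS1, of the ubiquinone side chain, had a log2 fold change of −0.25 under shARNT, and the prenylation subunits RABGGTB and FNTA had log2 fold changes of −0.29 and −0.27 under shBMAL1, where DHDDS, of dolichol synthesis, had −0.29. In the direct comparison PDSS1 and FNTA were not called, and RABGGTB and DHDDS were called lower in shBMAL1 (DESeq2 adjusted p 0.085 and 0.0211).

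Other lipogenic genes were also mostly lower under shBMAL1. Of 17 genes, 11 fell and 2 rose under shBMAL1 (median log2 fold change −0.29), and 7 fell and 3 rose under shARNT (median log2 fold change −0.01). The acyl-CoA synthetases ACSL5 and ACSL1, which activate long-chain fatty acids, had log2 fold changes of −0.997 (SE 0.21, DESeq2 adjusted p 1.83e-05) and −0.78 (SE 0.07, DESeq2 adjusted p 6.18e-26) under shBMAL1. Both were lower in shBMAL1 than in shARNT, with log2 fold changes of −1.23 and −0.85 (DESeq2 adjusted p 7.98e-09 and 7.06e-30). MID1IP1, a cofactor of acetyl-CoA carboxylase, and ACACB, the carboxylase of the mitochondrial membrane, fell in both knockdowns, with log2 fold changes of −0.71 and −0.68 under shARNT and −0.61 and −0.40 under shBMAL1, and neither was called in the direct comparison (DESeq2 adjusted p 0.601 and 0.183). ACSL4 rose under shARNT with a log2 fold change of 0.19 and fell under shBMAL1 with a log2 fold change of −0.20, and TECR rose in both, with log2 fold changes of 0.16 and 0.18. SCD5, a second stearoyl-CoA desaturase, rose under shBMAL1 with a log2 fold change of 1.04 (SE 0.27, DESeq2 adjusted p 0.000618) while SCD fell, but from only 58 ± 20.5 to 119 ± 4.65 normalised counts (SD, n = 3).

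Fatty acid oxidation, the opposing pathway, had 3 genes lower and 4 higher of 13 under shARNT, where 19% of all tested genes were lower and 16.5% higher, and the same numbers under shBMAL1, where these shares were 19.4% and 17.4%. CPT1A, which admits long-chain fatty acids to mitochondria, had 567 to 593 normalised counts in shControl, 793 to 911 in shARNT and 304 to 344 in shBMAL1. The 3 groups did not overlap and the knockdowns lay on opposite sides of shControl, with log2 fold changes of 0.55 under shARNT (SE 0.09, DESeq2 adjusted p 1.24e-07) and −0.83 under shBMAL1 (SE 0.12, DESeq2 adjusted p 1.39e-11). The difference between them was −1.38 on the log2 scale (SE 0.11, DESeq2 adjusted p 8.92e-33). PPARGC1A, the coactivator PGC-1α of mitochondrial genes, rose from 49.2 ± 12.3 normalised counts in shControl to 143 ± 44.6 in shARNT and 415 ± 26.6 in shBMAL1 (SD, n = 3), with log2 fold changes of 1.54 (DESeq2 adjusted p 5.5e-07) and 3.07 (DESeq2 adjusted p 1.17e-55). ACADS, a short-chain dehydrogenase, rose under shBMAL1 with a log2 fold change of 0.86, was at 0.21 under shARNT without a call, and was higher in shBMAL1 than in shARNT by 0.66 on the log2 scale (DESeq2 adjusted p 5.81e-10). ACADVL, its very-long-chain counterpart, fell in both knockdowns, with a log2 fold change of −0.22 in each and a direct difference whose 95% interval ran from −0.12 to 0.13. HADHA, of the later steps of oxidation, also fell in both, with log2 fold changes of −0.30 under shARNT and −0.18 under shBMAL1. ECI1, an isomerase of unsaturated chains, fell under shARNT with a log2 fold change of −0.25 and was at −0.10 under shBMAL1 without a call, and it was not called in the direct comparison (DESeq2 adjusted p 0.224).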

How the data were processed

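RNA was sequenced from 9 libraries of 786-O cells, 3 each of shControl, shARNT and shBMAL1, grouped by the sample labels. The values used were estimated counts per gene that the authors deposited, exported after alignment of paired-end reads from stranded mRNA libraries. The study's methods name GRCh37 with SeqMan NGen and ArrayStar, whereas the submitters' processing notes name STAR, hg38 and DESeq2, so the build is uncertain. The annotation, the strand setting and the handling of reads that map more than once are not given in the sources used here. The value 0.009 stood for 0 and was set to 0, fractional values were rounded to whole numbers (IDI1, MVK and STARD4 among the members), and 53 rows were added to a row of the same name.

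Each pair of groups was fitted over all genes in DESeq2 1.42.0 (R 4.3.3) on 6 libraries, with median-of-ratios size factors, the two-sided Wald test, independent filtering and Benjamini-Hochberg adjustment, and a gene was called at an adjusted p under 0.1. Normalised counts used size factors over all 9 libraries. No test was run over a list. The fits were tested on simulated data. Alternatives were edgeR 4.0.16 (quasi-likelihood), TMM size factors, a filter of 10 counts in 3 libraries, no independent filtering, an adjusted p under 0.05, a 1.5-fold minimum, one fit of 9 libraries, a replicate block, a GC correction (loess span 0.3) and leaving out each library. The background of genes with a mean of at least 1000 was chosen after seeing the data. The members and lists were chosen with earlier results of these data known. All members, the 2 targets, and the 2 lowest and 2 highest called genes of each further list in each knockdown are named, with values per library for the regulators and for members called with a change of at least 1.5-fold; other genes named overlap a member or are cell type markers, and 1 gene that this rule names is not reported here. Gene positions, lengths and GC content were taken from GENCODE as lifted to GRCh37, and promoters from RefSeq on GRCh38.p14, with no conversion between builds.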

Additional observations from a re-analysis of the deposited data

How the results depend on the processing

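Leaving aside the 1.5-fold minimum, 12 of the 17 members called under shARNT, 15 of 17 under shBMAL1 and 15 of 20 in the direct comparison kept their call under all 15 alternatives. The SE of the members' log2 fold changes, 0.04 to 0.13 at 3 libraries a group, limits what could be called. With a change of at least 1.5-fold, 1200 genes were called under shARNT, 2606 under shBMAL1 and 2064 in the direct comparison, with 0, 3 and 3 members lower and 0, 1 and 1 higher. In one fit of 9 libraries 1 member rose under shARNT. With GC correction the sterol median was −0.12 under shARNT and −0.086 under shBMAL1, where 4 members rose. With the block added to it, those medians were −0.11 and −0.0859, and 3 members rose. Deviations from the group means correlated between −0.17 and 0.13 for same-numbered libraries, and between −0.28 and 0.26 for differently numbered ones. With 3 libraries a group, these values cannot show whether a replicate number marks a shared culture or day. The replicate block alone gave 13 members lower and 3 higher under shARNT, 16 and 1 under shBMAL1, and 12 and 9 in the direct comparison. Leaving out 1 library gave 4174 to 4508 genes called under shARNT, 5744 to 6347 under shBMAL1 and 5087 to 5928 directly. Members lower were 12 to 16, 14 to 19 and 9 to 14, and members higher 1 to 3, 1 to 2 and 7 to 9. The sterol median ran from −0.18 to −0.12, −0.19 to −0.10 and −0.091 to −0.0198, and the fatty acid median from −0.17 to −0.084, −0.30 to −0.24 and −0.17 to −0.13. Log2 values that changed sign were all of members not called in that comparison. Under shARNT these were SC5D (−0.0046 with TMM size factors, −0.0402 with GC correction, −0.0416 with the block added, and −0.0463 to 0.0687 with a library left out), MVK (0.02 and 0.0225 with GC correction without and with the block), STARD4 (−0.046 to 0.0265) and NSDHL (−9e-04 to 0.0798) with a library left out. Under shBMAL1 DHCR7 gave −9e-04 to 0.1834 with a library left out. Directly, INSIG2 gave 9e-04 with the block, 0.0169 and 0.0178 with GC correction without and with it, and −0.111 to 0.0894 with a library left out. MVD gave −0.0319 and −0.0331 with GC correction, and −0.0594 to 0.0628 with a library left out. SQLE gave −0.0093 and −0.0127 with GC correction, and −0.0458 to 0.0848 with a library left out. ELOVL6 gave 0.0013 with GC correction and −0.1076 to 0.0594 with a library left out, and IDI1 gave −0.1295 to 0.0097 with a library left out. The cause of these changes was not tested.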
